A study of Mus musculus with 14 samples.

Results

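Acsl4, Acot9 and Pcyt1b are X-linked genes of acyl-CoA and phosphatidylcholine metabolism, and their expression from each X chromosome was followed through early differentiation of female mouse ES cells, with and without hairpins against Setdb1. The genes were chosen with earlier results of these data known, and their SNPs by position. Every SNP of the allelic read table that falls in an exon of 1 of these 3 genes in mm10 was taken. The reads with the 129 base and with the CAST base were summed per gene. This gave 30 of the 2239 SNPs in the table and 3 of the 355 genes with a SNP, and all 3 genes reached 10 or more reads in each library, which 247 genes did and which was required for a test. The cells were female ES cells from E3.5 embryos of CAST sires and dams given as 129/C57 in the labels and as 129 in the study's text. All of them, controls included, were Setdb1+/+ Xist∆A/+, and because the X chromosome of 129 carried the Xist∆A deletion, the CAST X was the obligate inactive X (Xi) and the 129 X the active X (Xa). Cells were taken untransduced in 2i+LIF medium at day 0, and at day 3 and day 5 of a stepwise change to DMEM+FBS after retroviral transduction and puromycin selection with a non-silencing hairpin (Nons), shSetdb1.4 or shSetdb1.6. Each of these 7 conditions had 2 replicates, from repeated experiments on 1 ES cell line, which makes 14 libraries of single-end RNA-seq.

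Fatty acids enter metabolism as thioesters of coenzyme A. Acsl4 is a long-chain acyl-CoA synthetase that makes these thioesters, with a preference for arachidonate and related polyunsaturated fatty acids that are then placed in membrane phospholipids. Acot9 is a mitochondrial acyl-CoA thioesterase and catalyses the opposite step, the hydrolysis of an acyl-CoA to the free acid and coenzyme A. Pcyt1b is the beta isoform of the enzyme that joins CTP and phosphocholine to CDP-choline, the step that controls the rate of the Kennedy pathway to phosphatidylcholine, and its better known relative Pcyt1a is autosomal. In female cells that undergo X inactivation, Xist RNA coats the future Xi, most of its genes fall silent, and transcripts then come mainly from the Xa. Setdb1 is a histone methyltransferase for lysine 9 of histone H3, a mark of silent chromatin, and the comparison asks whether its depletion changes the silencing of genes on the Xi.

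Acsl4 (ENSMUSG00000031278.12) lies on the minus strand at chrX:142317993-142390535 (mm10), and was measured at 16 SNPs, 12 in the 3′ UTR, 3 in coding sequence and 1 in the 5′ UTR. Acot9 (ENSMUSG00000025287.15, plus strand, chrX:155262443-155297654) had only 3 SNPs, 2 in coding sequence and 1 in the 5′ UTR. Pcyt1b (ENSMUSG00000035246.16, plus strand, chrX:93654863-93749951) had 11 SNPs, all in the 3′ UTR. None of these SNPs lay in an exon of a further gene, and the base counted as 129 was the base of the GENCODE transcript at all 30. Neighbouring SNPs can share reads: 37.5% of the Acsl4 SNPs and 54.5% of the Pcyt1b SNPs were within 100 bp, 1 read length, of another SNP of the gene. The coding SNPs and some 3′ UTR sites with many reads are shown as 21 bases of the mRNA strand, 5′ to 3′. The SNP is in capitals and has the 129 base. Positions in the substitutions count from 1 at the 5′ end of the window, with the 129 base first and the CAST base last. The coding SNPs of Acsl4 were all synonymous, and they are followed by a 3′ UTR site with many reads.
Acsl4 chrX:142351018, T11C, synonymous: ccattttctgTgagaccaggg
Acsl4 chrX:142343107, T11C, synonymous: gctgtaggatTggatactctt
Acsl4 chrX:142320797, G11A, synonymous: tcaaggttcgGttaagcccag
Acsl4 chrX:142319838, C11A, 3′ UTR: tggaatcctaCgtattcaaaa
For Acot9 both coding SNPs are shown, as they gave most of its reads, and the later one changes the encoded amino acid. Its window crosses an exon junction.
Acot9 chrX:155273026, A11G, synonymous: ttttgcctaaAtcacagaaag
Acot9 chrX:155295692, G11A, changes the amino acid: ggaacgaaacGtattcaatcg
For Pcyt1b a pair of sites in the 3′ UTR is shown, from its earlier and its later part.
Pcyt1b chrX:93746968, G11A, 3′ UTR: atagaaaagtGtgacccttaa
Pcyt1b chrX:93749242, G11A, 3′ UTR: accaagtgctGactctccatg

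The Acot9 reads are the least certain of the 3 genes. Acot10, an autosomal and nearly identical copy, matched 98 of 101 bases around the first coding SNP of Acot9 and 100 of 101 around the second, and at both it carries the base counted as 129. Any Acot10 read placed on Acot9 would thus have been counted as a 129 read, and the number of such reads was not tested. The 101 bases around the Pcyt1b SNPs matched Pcyt1a over at most 26.7%, and those around the Acsl4 SNPs matched Acsl3 over a median of 25.25% and at most 73.3%.

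The libraries held between 32972 and 101511 allelic X-linked reads (median 74648), and the shallowest was Nons day 5 replicate 2. The median log2 CAST/129 ratio over genes was 0 in both Nons libraries at day 3, and at day 5 it was -0.45 and -0.24 in Nons, -0.28 and 0.19 in shSetdb1.4 and -0.06 and 0.04 in shSetdb1.6, so that ratios of all genes moved together between the day 5 libraries. Values centred on this median are therefore given beside the main comparisons. The study notes that XO cells arise in such cultures, and their share in these libraries was not tested. Of the marker genes for pluripotent ES cells all 3 had SNPs, and their summed level was 14690 to 22170 CPM (reads scaled to one common library total) at day 3 and 5492 to 9074 at day 5, with Nr0b1 at 8710 to 16500 and then 106 to 467, but Dusp9 at 2040 to 4050 and then 3730 to 7580. The 2 fibroblast markers of 4 with a SNP, Timp1 and Fhl1, summed to 1328 to 2037 CPM at day 3 and 707 to 1404 at day 5. The 1 extraembryonic marker of 3 with a SNP was at 357 to 959 CPM and then 202 to 252, and the 2 neural markers of 3 at 279 to 664 and then 554 to 1089. No marker with a SNP was at 0 in all libraries, and the part of these changes in the results for Acsl4, Acot9 and Pcyt1b was not tested. In bulk libraries fewer cells of a type and less RNA per cell cannot be told apart. Setdb1 is autosomal and was not analysed here.

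At day 0 the 3 genes stood on different sides of an even allelic balance. Acsl4 was expressed more from the CAST X, Acot9 reads more often carried the 129 base, and Pcyt1b leaned towards the 129 X without passing the test. The coding SNPs of Acot9, where Acot10 carries the 129 base, were at 39.9% and 23.0% CAST. Its 5′ UTR SNP, the one least like Acot10, was at 56.7% of 30 reads. The CAST share of Acsl4 reads was 59.5% of 422 reads in replicate 1 and 57.7% of 534 reads in replicate 2. Acot9 had a CAST share of 31.1% of 135 reads and 38.7% of 186 reads, and Pcyt1b 43.3% of 150 reads and 43.8% of 406 reads. Both replicates of a gene thus lay on the same side of 50%. The log2 CAST/129 ratio was 0.50 ± 0.15 (SE) for Acsl4 (edgeR, adjusted p = 0.00697) and -0.89 ± 0.23 for Acot9 (edgeR, adjusted p = 0.000706), against a median of -0.08 over all genes tested. For Pcyt1b it was -0.39 ± 0.18 (edgeR, adjusted p = 0.114). Of all genes tested, 22.3% passed this test at day 0, 20 with a higher CAST and 35 with a higher 129 level, which became 34 and 31 with ratios centred on the library median. The Acsl4 call was lost without either day 0 replicate (0.39 without replicate 1, 0.61 without replicate 2), and the Acot9 call without replicate 1 (-0.80; edgeR, adjusted p = 0.0757).

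**Figure D1:**
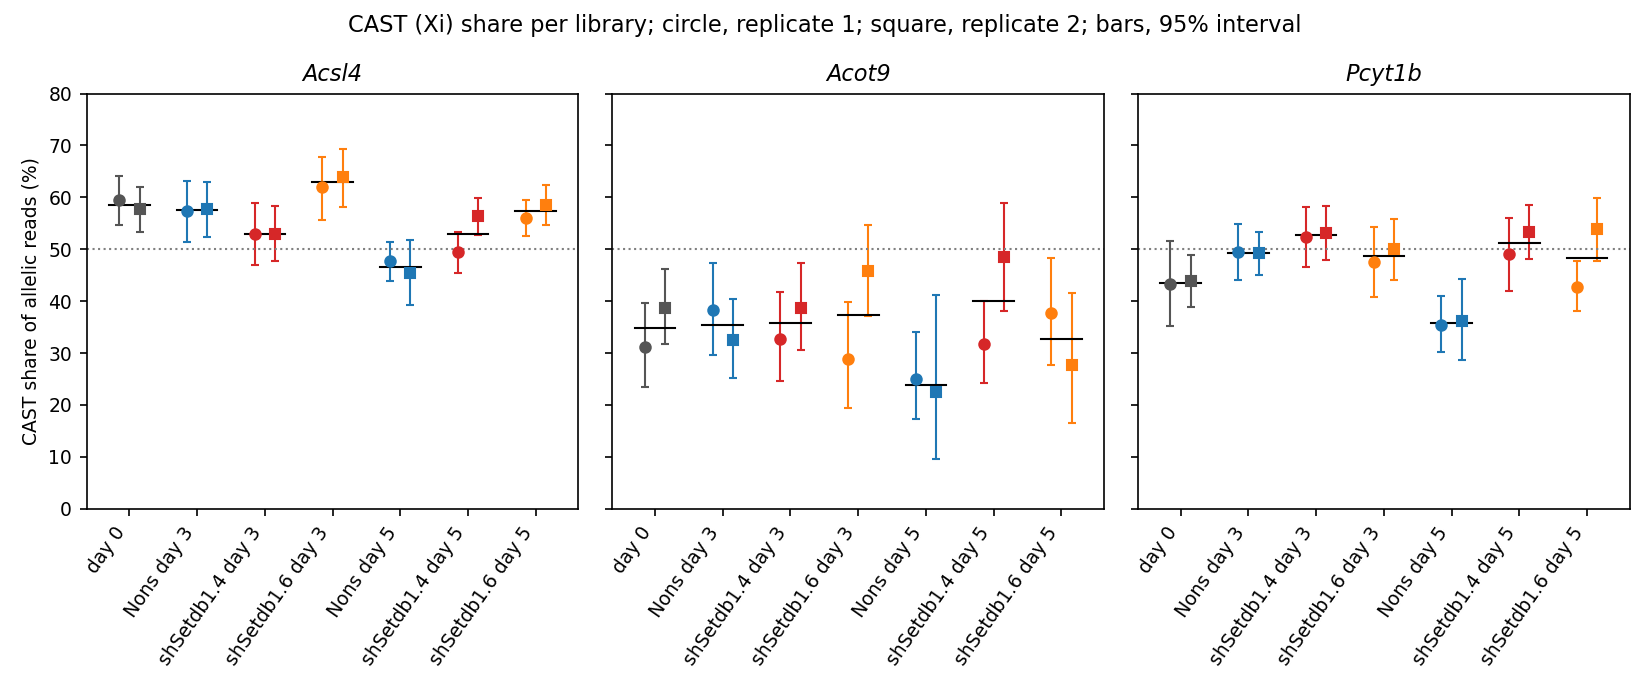
CAST (Xi) share of the allelic reads of Acsl4, Acot9 and Pcyt1b in percent, in each of the 14 libraries by condition. Points are libraries (circle, replicate 1, square, replicate 2), bars the exact 95% binomial interval for counting error, black lines group means and the dotted line equal expression of both alleles. In each gene the Nons day 5 libraries have the lowest group mean, 46.6%, 23.8% and 35.8%.

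In control cells no change in allelic ratio passed the test up to day 3, and all 3 genes had a lower CAST share at day 5 than at day 3. This comparison covers the days on which silencing of the Xi is established. The CAST share of Acsl4 was 57.3% and 57.7% at day 3 (288 and 355 reads) and 47.7% and 45.5% at day 5 (703 and 255 reads). For Pcyt1b it was 49.4% and 49.2% at day 3 (354 and 573 reads) and 35.5% and 36.1% at day 5 (324 and 155 reads). The replicates of these genes were close together on each day, and the days did not overlap. Acot9 had a CAST share of 38.2% and 32.5% at day 3 (123 and 157 reads), and of 25.0% and 22.6% at day 5. The last value rests on 31 reads, 7 of them from CAST, with an exact 95% interval from 9.59% to 41.1%.

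The fall in the Xi/Xa ratio from day 3 to day 5 passed the test for Pcyt1b, with a log2 difference of -0.78 ± 0.25 (SE; edgeR, adjusted p = 0.0218). It was -0.61 ± 0.23 for Acsl4 (edgeR, adjusted p = 0.0589) and -0.66 ± 0.41 for Acot9 (edgeR, adjusted p = 0.301), neither of which passed. Centred on the library median these values were -0.25 and -0.28, and the Acot9 value ran from -1.06 to -0.23 when 1 library was left out. Over all genes tested the median was -0.33, and 9.72% of genes passed with a lower ratio at day 5. The day 5 libraries lay below the day 3 libraries in all 3 genes, as they did in 46.6% of all genes tested. With ratios centred on the library median the Pcyt1b difference was -0.42 and did not pass (edgeR, adjusted p = 0.244), and the 24 genes lower and 1 gene higher at day 5 became 10 and 10. For Pcyt1b, leaving out any of the 4 libraries also ended the call (-0.89 to -0.68). From day 0 to day 5 the ratio fell in Acsl4 (-0.67 ± 0.22; edgeR, adjusted p = 0.0211), a call that 10.5% of genes made in this direction. That call was lost with centred ratios (-0.41), where the 26 genes lower and 2 higher became 13 and 9, and without day 0 replicate 1, Nons day 5 replicate 1 or Nons day 5 replicate 2 (-0.56, -0.81 and -0.57). The day 0 to day 5 difference was -0.66 ± 0.40 for Acot9 and -0.44 ± 0.26 for Pcyt1b, and neither passed (edgeR, adjusted p = 0.334 and 0.330). With centred ratios these were -0.39 and -0.18, and the Acot9 value ran from -1.05 to -0.51 when 1 library was left out. From day 0 to day 3 the differences were -0.06 for Acsl4, -0.00173 for Acot9 and 0.34 ± 0.24 for Pcyt1b, against a median of 0.04 over all genes tested. Both Pcyt1b libraries of day 3 lay above both of day 0, as in 23.5% of genes. No tested gene passed in that comparison by edgeR or DESeq2, and 11 genes had an unadjusted p under 0.05 by edgeR and 10 by DESeq2.

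The total expression of the genes followed 3 different courses in the same control cells. Totals are the CAST and 129 reads of a gene in CPM, relative to the TMM-scaled total of allelic reads of the library, and they are compared within a gene only, since genes differ in the number of SNPs that can collect reads. Acsl4 stood at 5235 and 6529 CPM at day 0, 5828 and 4870 at day 3, and 8425 and 8021 at day 5. The rise from day 3 to day 5 was 0.62 ± 0.19 on the log2 scale (edgeR, adjusted p = 0.0273). Acot9 went from 1675 and 2274 at day 0 to 2489 and 2154 at day 3, and was at 1342 and 975 at day 5. It fell by 0.97 ± 0.32 from day 3 to day 5 (edgeR, adjusted p = 0.0387). Between these days 14.6% of genes passed with a higher and 13.4% with a lower total. Both calls depend on single libraries: the Acot9 call was lost without any 1 of the 4 (-1.25 to -0.77), and the Acsl4 call without Nons day 3 replicate 2 (0.50) or Nons day 5 replicate 1 (0.59).

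Pcyt1b had the most uneven start, with 1861 CPM in replicate 1 and 4964 in replicate 2 at day 0. It reached 7163 and 7861 at day 3, above both day 0 libraries, as in 26.7% of genes, and stood at 3883 and 4875 at day 5. The rise to day 3 was 1.14 ± 0.33 (edgeR, adjusted p = 0.0397), where 4.45% of genes passed with a higher total. It was 0.60 without day 0 replicate 1 (edgeR, adjusted p = 0.295) and 2.01 without day 0 replicate 2, and the call was lost without Nons day 3 replicate 1 (1.20) or replicate 2 (1.07). It was also lost with no filter on low counts (1.16), with scaling by library size only (1.06) and without the SNP with the most reads (0.997). The difference from day 3 to day 5 was -0.79 ± 0.33 and did not pass (edgeR, adjusted p = 0.0899), but passed with a replicate block (edgeR, adjusted p = 0.0493).

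Read by allele, both X chromosomes moved in the same direction in each gene. In Acsl4 the mean level of the CAST allele was 3076 ± 372 (SD, n = 2) CPM at day 3 and 3832 ± 259 at day 5 in Nons, while the 129 allele went from 2273 ± 305 to 4391 ± 27.2. Both alleles of Acsl4 were thus higher at day 5, and the lower CAST share came with a larger gain of the 129 allele. In Acot9 both alleles were lower at day 5, CAST at 278 ± 81.6 after 825 ± 178 and 129 at 881 ± 178 after 1496 ± 59.2. In Pcyt1b the CAST allele went from 3705 ± 232 to 1570 ± 271 and the 129 allele from 3807 ± 262 to 2809 ± 431. The alleles were not tested separately.

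**Figure D2:**
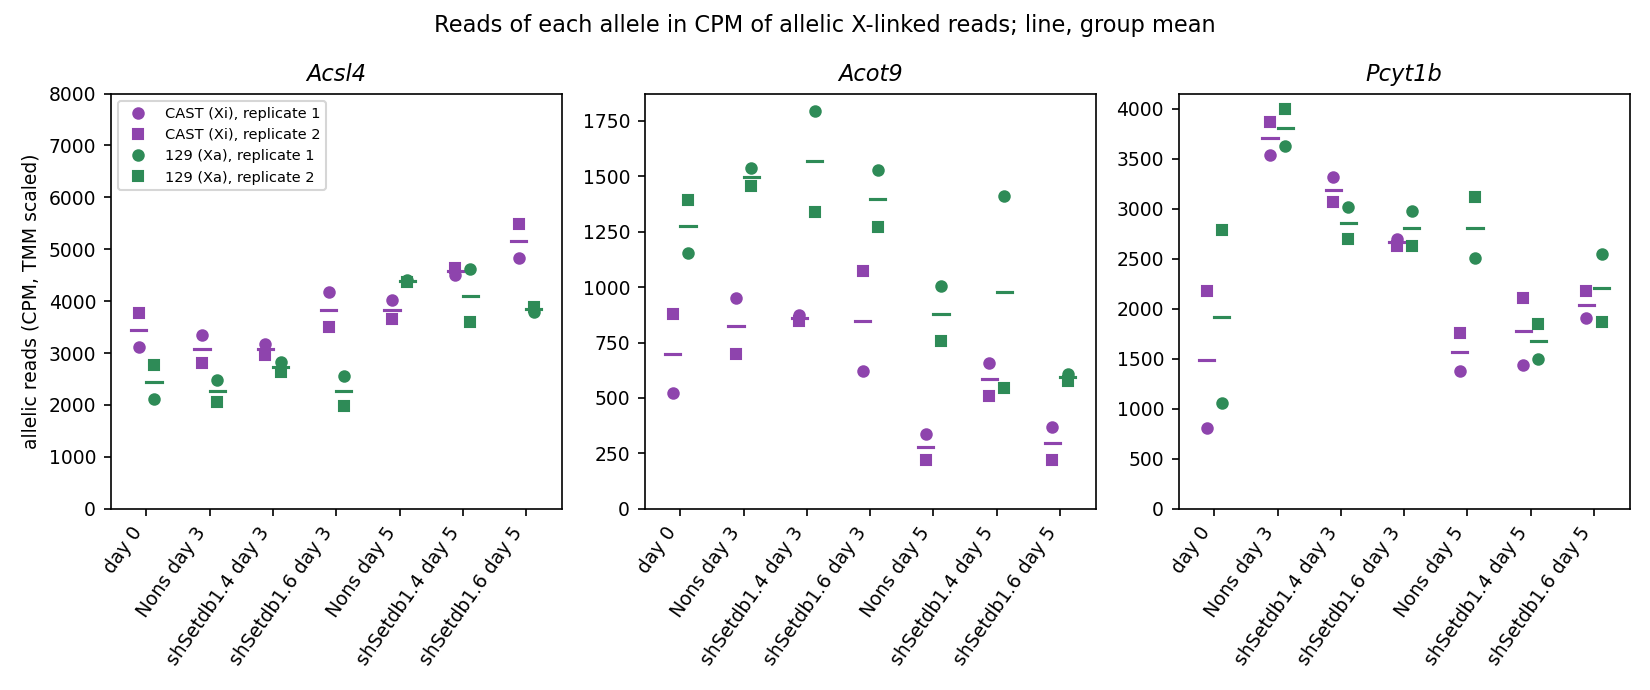
Allelic reads in CPM (TMM scaled) of the CAST (Xi) and 129 (Xa) allele of each gene in each library, with lines for group means. The vertical scales differ between genes. In Nons cells from day 3 to day 5 the Acsl4 means rise for both alleles, to 3832 and 4391, and the Acot9 and Pcyt1b means fall for both.

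At day 3 no difference in allelic ratio between the Setdb1 hairpins and Nons passed the test in the 3 genes. The CAST share of Acsl4 was 53.0% in both shSetdb1.4 libraries, below the 57.3% and 57.7% of Nons, and 61.9% and 63.8% in the shSetdb1.6 libraries, above Nons. The hairpins thus lay on opposite sides of the control. For Acot9 the share was 32.8% and 38.7% in shSetdb1.4 cells, 28.9% and 45.8% in shSetdb1.6 cells and 38.2% and 32.5% in Nons cells. Pcyt1b had 52.4% and 53.2% in shSetdb1.4 cells, where Nons had 49.4% and 49.2%, but 47.5% and 50.0% in shSetdb1.6 cells. With both hairpins against Nons the log2 differences were 0.03 ± 0.20 (SE) for Acsl4, 0.12 ± 0.29 for Acot9 and 0.09 ± 0.20 for Pcyt1b (edgeR, adjusted p = 0.985 for each). edgeR and DESeq2 called 0 of the 247 tested genes in this comparison, with 7 and 3 genes at an unadjusted p under 0.05. The difference between the hairpins in Acsl4, a comparison added after the data were seen, was 0.59 ± 0.24 for shSetdb1.6 against shSetdb1.4 and did not pass over all genes (edgeR, adjusted p = 0.409), where 0.81% of genes passed.

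At day 5 the CAST share was higher with the hairpins than with Nons in all 3 genes, and Pcyt1b passed the test. Pcyt1b had a CAST share of 49.0% and 53.3% in shSetdb1.4 cells (206 and 364 reads) and of 42.8% and 53.8% in shSetdb1.6 cells (423 and 273 reads), while Nons was at 35.5% and 36.1%. Acsl4 had 49.5% and 56.3% in shSetdb1.4 cells (639 and 758 reads) and 56.0% and 58.5% in shSetdb1.6 cells (821 and 632 reads), beside 47.7% and 45.5% in Nons cells. In Acot9 the values were 31.7% and 48.5% for shSetdb1.4 (145 and 97 reads), 37.6% and 27.8% for shSetdb1.6 (93 and 54 reads), and 25.0% and 22.6% for Nons. Each hairpin library was above both Nons libraries in each gene, and so were those of 32.4% of all genes tested. The hairpin replicates of Acot9 differed by more than its lowest hairpin library differed from Nons.

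With both hairpins against Nons at day 5, the log2 Xi/Xa ratio of Pcyt1b was higher by 0.80 ± 0.22 (SE; edgeR, adjusted p = 0.0287). The difference was 0.47 ± 0.18 for Acsl4 (edgeR, adjusted p = 0.104) and 0.77 ± 0.38 for Acot9 (edgeR, adjusted p = 0.175), which did not pass. Over all genes tested the median difference was 0.35, and 3.64% of genes passed with a higher ratio. The Pcyt1b call was lost when ratios were centred on the library median (0.45; edgeR, adjusted p = 0.498), where the 9 genes higher and 1 gene lower became 0 and 1, and without the replicate block (0.82; edgeR, adjusted p = 0.0895). It was also lost without Nons day 5 replicate 1 (0.89), Nons day 5 replicate 2 (0.75) or shSetdb1.6 day 5 replicate 2 (0.69). Acsl4 passed only when shSetdb1.4 day 5 replicate 1 was left out (0.57; edgeR, adjusted p = 0.0111).

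Taken within replicates, the hairpin library exceeded the Nons library of the same replicate at day 5 in all 4 pairs for each gene. Such pairs were not counted over all genes, but 32.4% of genes tested had every hairpin library above both Nons libraries. The mean difference in log2 ratio was 0.49 ± 0.28 (SD, n = 4) for Acsl4, 0.79 ± 0.55 for Acot9 and 0.82 ± 0.27 for Pcyt1b. At day 3 these means were 0.03 ± 0.34, 0.07 ± 0.64 and 0.08 ± 0.15, with 2, 2 and 3 of the 4 pairs higher. Centring on the library median lowered the day 5 means to 0.17 ± 0.23 for Acsl4, 0.48 ± 0.46 for Acot9 and 0.50 ± 0.31 for Pcyt1b, and 1 Acsl4 pair then turned negative (-0.07, shSetdb1.4 replicate 1). All 4 pairs of Acot9 and of Pcyt1b stayed above 0, the lowest at 0.04 and 0.05. The share of all genes that did so after centring was not counted. The 4 pairs use 2 Nons libraries, so they are not 4 independent comparisons.

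**Figure D3:**
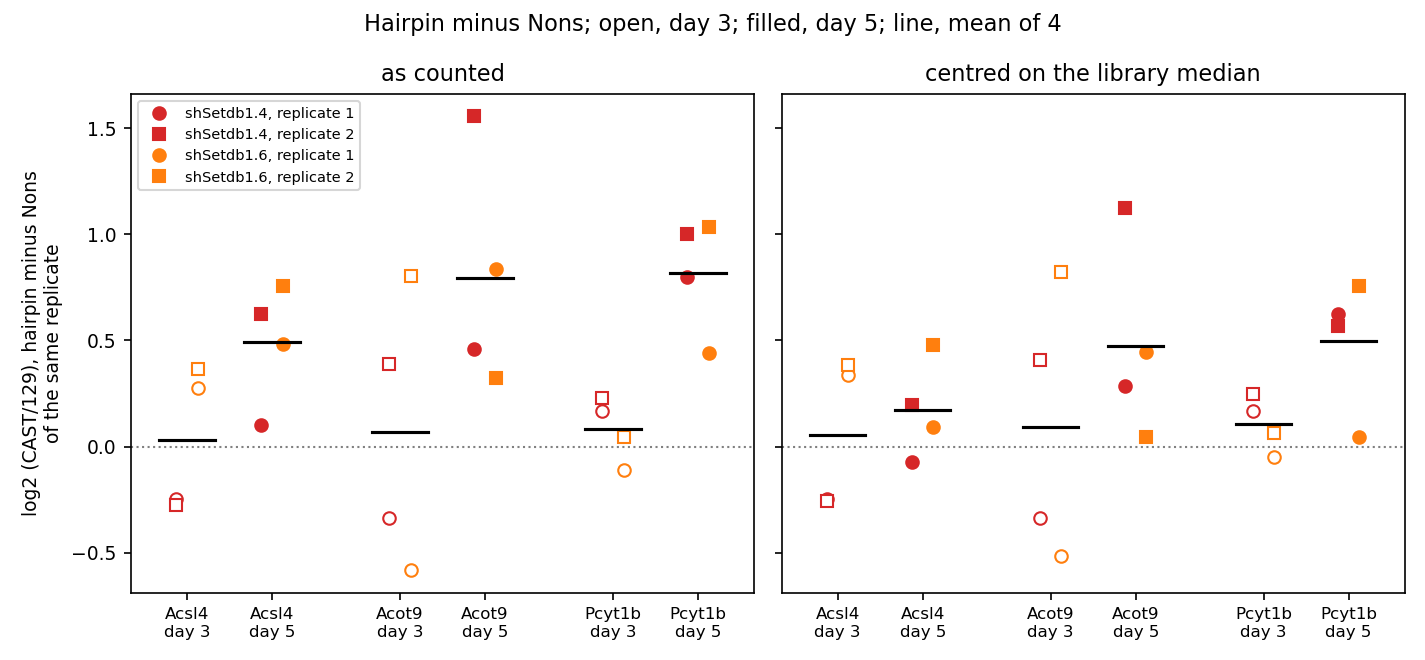
Difference in log2 CAST/129 ratio between a hairpin library and the Nons library of the same replicate, for each gene at day 3 (open) and day 5 (filled), as counted (left) and centred on the library median (right). Lines are means of the 4 pairs. All day 5 points lie above 0 as counted, while after centring the Acsl4 mean is 0.17.

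Each hairpin alone gave day 5 differences above 0 in all 3 genes with every library included, none of which passed. They were 0.35 ± 0.21 (SE) with shSetdb1.4 and 0.60 ± 0.21 with shSetdb1.6 in Acsl4, 0.92 ± 0.41 and 0.61 ± 0.44 in Acot9, and 0.90 ± 0.26 and 0.71 ± 0.25 in Pcyt1b. With centred ratios they were 0.02 and 0.24 in Acsl4, 0.61 and 0.26 in Acot9, and 0.55 and 0.35 in Pcyt1b. Without shSetdb1.6 day 5 replicate 1 the Acot9 value for shSetdb1.6 was -0.06. The smallest adjusted p was 0.0625, for Pcyt1b with shSetdb1.4 (edgeR). For shSetdb1.4 edgeR called 0 genes, with 56 at an unadjusted p under 0.05, and DESeq2 called 1. Without shSetdb1.4 day 5 replicate 1 edgeR called 40 genes for shSetdb1.4, and Acot9 (1.39; edgeR, adjusted p = 0.0471) and Pcyt1b (0.94; edgeR, adjusted p = 0.0129) passed. For shSetdb1.6, 0.81% of genes passed with a higher ratio. The hairpin effect at day 5 minus that at day 3 was 0.44 ± 0.27 for Acsl4, 0.64 ± 0.48 for Acot9 and 0.71 ± 0.30 for Pcyt1b (edgeR, adjusted p = 0.419, 0.496 and 0.323), so a difference between days was not shown for any of them. With centred ratios these values were 0.08, 0.27 and 0.34, and the Acot9 value ran from 0.24 to 1.06 when 1 library was left out. The median of this difference over all genes tested was 0.33, and 0.405% of genes passed with a higher value. In the hairpin libraries themselves the ratio changed from day 3 to day 5 by -0.17 ± 0.16 in Acsl4, -0.01 in Acot9 and -0.07 ± 0.17 in Pcyt1b, none past the test, where 6.07% of genes passed with a lower ratio at day 5.

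No difference in total expression between hairpin and Nons cells passed the test in the 3 genes on either day. At day 5 the log2 difference was 0.10 ± 0.16 (SE) for Acsl4, -0.01 for Acot9 and -0.18 ± 0.28 for Pcyt1b (edgeR, adjusted p = 0.986 for each). At day 3 it was 0.16 ± 0.17, 0.01 and -0.39 ± 0.28 (edgeR, adjusted p = 0.997 for each), and all 4 hairpin libraries were below both Nons libraries in Pcyt1b, as in 4.45% of genes. edgeR and DESeq2 called 0 genes in total expression on both days, with 6 and 5 genes at an unadjusted p under 0.05 on day 5 and 4 and 1 on day 3. By allele, the mean CAST level of Pcyt1b at day 5 was 1570 ± 271 (SD, n = 2) CPM with Nons, 1775 ± 472 with shSetdb1.4 and 2042 ± 196 with shSetdb1.6. Its 129 level was 2809 ± 431, 1673 ± 247 and 2206 ± 478, so the higher CAST share came with a lower mean of the 129 allele as well as a higher mean of the CAST allele. In Acsl4 the CAST means were 3832 ± 259, 4576 ± 92.5 and 5162 ± 460, and the 129 means 4391 ± 27.2, 4105 ± 716 and 3840 ± 63.8. In Acot9 the CAST means were 278 ± 81.6, 584 ± 103 and 295 ± 103, and the 129 means 881 ± 178, 978 ± 615 and 594 ± 22.2.

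Ordered by mean CAST share, Nons day 5 came last of the 7 conditions in each gene, with no overlap with the condition next above it. How many of all genes tested have such an order was not counted, for shares or for totals. Nons day 5 lay below Nons day 3 in 46.6% of them, and the day 5 hairpin libraries lay above Nons in 32.4%. In Acsl4 the order ran from shSetdb1.6 day 3 (62.9%) over day 0 (58.6%), Nons day 3 (57.5%), shSetdb1.6 day 5 (57.3%), shSetdb1.4 day 3 (53.0%) and shSetdb1.4 day 5 (52.9%) to Nons day 5 (46.6%). Overlapping neighbours were day 0 with Nons day 3, Nons day 3 with shSetdb1.6 day 5, and shSetdb1.4 at its 2 days. In Acot9 all conditions above Nons day 5 overlapped with their neighbours, between 32.7% and 40.1%. In Pcyt1b the 5 hairpin and Nons day 3 groups overlapped in turn between 48.3% and 52.8%, and shSetdb1.6 day 5 overlapped with day 0 (43.6%), which was above Nons day 5 (35.8%). Ordered by total, the 3 day 5 groups of Acsl4 were on top without an overlap with the rest (8223 to 9002 CPM), and in Acot9 they were at the bottom (889.3 to 1562), where shSetdb1.4 day 5 overlapped with day 0. Nons day 3 led Pcyt1b at 7512, with no overlap with shSetdb1.4 day 3 (6042).

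The SNPs of a gene mostly moved in the same direction. SNPs of 1 transcript are not replicates and can share reads, so their counts are a description. With the libraries of a condition summed, the CAST share was higher with the hairpins than with Nons at day 5 at 13 of 16 SNPs of Acsl4, 3 of 3 of Acot9 and 11 of 11 of Pcyt1b. The median difference was 10.0, 13.3 and 15.1 percentage points. From Nons day 3 to day 5 the share was lower at 13 of 16, 3 of 3 and 9 of 11 SNPs. At day 3 the hairpins were above Nons at 8 of 16, 2 of 3 and 6 of 11 SNPs.

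The 3 Acsl4 SNPs that went the other way at day 5 were the coding SNP at chrX:142343107 (56.5% with Nons, 48.0% with the hairpins) and a pair of 3′ UTR SNPs 6 bases apart, at chrX:142319091 (56.3% and 48.3%) and chrX:142319097 (61.2% and 47.5%). The 3 coding SNPs of Acsl4 together had a CAST share of 56.0% and 45.8% in the Nons day 5 libraries (168 and 48 reads), while the 12 SNPs of the 3′ UTR had 45.2% and 46.3% (516 and 203 reads). At day 5 the coding SNPs were at 50.0% and 57.3% in shSetdb1.4 cells and at 54.0% and 59.9% in shSetdb1.6 cells, and the 3′ UTR SNPs at 49.8% and 55.4% and at 57.1% and 58.5%. By the 3′ UTR all 4 hairpin libraries were above both Nons libraries, while by the coding SNPs replicate 1 of each hairpin was below Nons replicate 1. The SNP at chrX:142318351 had the lowest CAST share of the Acsl4 SNPs at day 0 (38.8%), in Nons cells at day 5 (24.7%) and with the hairpins at day 5 (36.4%).

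In Acot9 the coding SNP at chrX:155295692 had a lower CAST share than the one at chrX:155273026 in every condition. It stood at 23.0% at day 0, 28.3% in Nons at day 3, 15.4% in Nons at day 5 (39 reads) and 28.7% with the hairpins at day 5. The SNP at chrX:155273026 was at 39.9%, 39.0%, 29.1% (86 reads) and 39.5%. The 5′ UTR SNP at chrX:155262563, whose 101 bases matched Acot10 at 51 positions only, was at 56.7% at day 0 (30 reads), 39.3% in Nons at day 3 (28 reads), 22.2% in Nons at day 5 (18 reads) and 60.0% with the hairpins at day 5 (20 reads). In Pcyt1b the day 0 shares ranged from 27.5% to 58.3% between SNPs and the Nons day 5 shares from 27.4% to 43.2%, all below 50%, and with the hairpins at day 5 from 42.6% to 56.1%. The largest Pcyt1b difference was at chrX:93749242, with 27.4% of 62 reads in Nons and 49.3% of 150 reads with the hairpins.

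**Figure D4:**
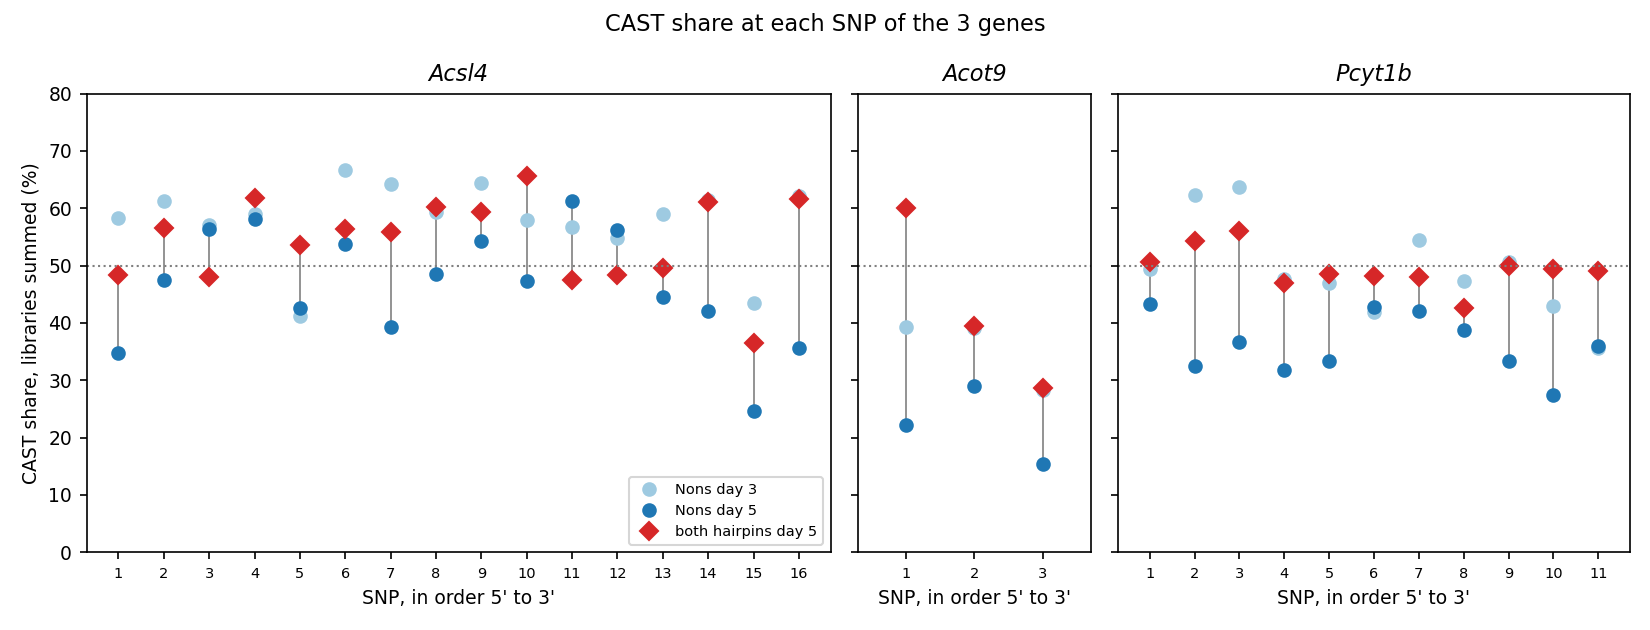
CAST share in percent at each SNP of Acsl4, Acot9 and Pcyt1b, numbered from the 5′ to the 3′ end of the gene, with the libraries of a condition summed. Grey lines join Nons day 5 and both hairpins at day 5, which are higher at 13 of 16, 3 of 3 and 11 of 11 SNPs.

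The genes whose log2 ratio was most like that of a member over the 14 libraries were found by Pearson's r. All libraries share their depth and their median ratio with every gene, and r with the library median itself was 0.617 for Acsl4, 0.691 for Acot9 and 0.78 for Pcyt1b, so these values are descriptions. Acsl4 was most like Prdx4 (r = 0.866), a peroxiredoxin of the secretory pathway, then Rlim (0.828), a ubiquitin ligase that activates Xist, and Utp14a (0.807), a factor of ribosome biogenesis. Acot9 was most like Prkx (0.786), Armcx4 (0.769) and Zfx (0.766). Pcyt1b was most like Dusp9 (0.813), a phosphatase of MAP kinases, then Elk1 (0.788), a transcription factor, and Emd (0.762), which encodes the nuclear envelope protein emerin. Among themselves the members had r between 0.483 and 0.556 in the ratio. In total reads Acsl4 and Acot9 ran opposite to each other (r = -0.72), and Pcyt1b had r = -0.335 with Acsl4 and 0.368 with Acot9.

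Other X-linked genes of lipid metabolism were taken from 3 lists. Of 12 listed genes of acyl-CoA and fatty acyl metabolism 6 were tested, of 9 genes of phospholipids and phosphoinositides 5, and of 4 genes of sterols and sphingolipids 4, and the lists were drawn up with earlier results of these data known. In the ratio of hairpins against Nons at day 5, Zdhhc9, a palmitoyltransferase that uses acyl-CoA, was the only gene of the acyl-CoA list to pass, and it rose by 0.82 ± 0.25 (SE; edgeR, adjusted p = 0.0390). This call was lost with centred ratios (0.50), without the replicate block (0.83), with DESeq2 (0.80), with SNPs 100 bp apart (0.58) and without either Nons library (0.60 and 0.93), among others. The median of that list was 0.36, close to the 0.35 over all genes. No gene of the other 2 lists passed, with medians of 0.01 and 0.11. Piga, which starts the synthesis of GPI anchors, was at 1.18 ± 0.40 (edgeR, adjusted p = 0.0517).

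From Nons day 3 to day 5 the ratio of Zdhhc9 fell, with a log2 difference of -1.59 ± 0.29 (SE; edgeR, adjusted p = 4.05e-06), and so did that of Piga (-1.67 ± 0.44; edgeR, adjusted p = 0.00435). Centred on the library median the differences were -1.24 and -1.30 and still passed, and no other listed gene passed. The Zdhhc9 call was lost without Nons day 3 replicate 1 (-1.06), and the Piga call without Nons day 3 replicate 2 (-1.48) or Nons day 5 replicate 1 (-2.003). From day 0 to day 5 both were also lower (-1.74 in Zdhhc9 and -1.34 in Piga; edgeR, adjusted p = 1.21e-07 and 0.0175), and the Piga call was lost with centred ratios (-1.06) and without day 0 replicate 1 or either Nons day 5 library (-1.08, -1.67 and -1.21). In Piga the hairpin difference was larger at day 5 than at day 3 by 1.93 (edgeR, adjusted p = 0.0391), a call lost with DESeq2, without the replicate block (1.94), with centred ratios (1.53) and without either Nons day 5 library (2.27 and 1.81), among others. Both estimates of day 5 against day 3 were larger in size than those of Acsl4, Acot9 and Pcyt1b, a difference that was not tested. In Pdha1, a subunit of the pyruvate dehydrogenase complex, which makes acetyl-CoA, the difference was -0.001 ± 0.18. Tmem164 (0.13 ± 0.24), Hsd17b10 of mitochondrial fatty acid oxidation (-0.22 ± 0.30) and Ocrl, a phosphoinositide phosphatase (-0.13 ± 0.28), did not pass either. In Zdhhc9 the ratio also fell with the hairpins from day 3 to day 5, by 0.91 ± 0.20 (edgeR, adjusted p = 0.000283), a call lost without shSetdb1.6 day 3 replicate 2 (-0.72). In the same comparison Gla, a lysosomal galactosidase, rose by 1.11 ± 0.38 (edgeR, adjusted p = 0.0377), a call lost without the replicate block, with centred ratios, with DESeq2, with no filter and without any 1 of 7 of the 8 libraries (0.92 to 1.27). In that comparison 4.45% of genes passed with a higher ratio.

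At day 0, 22.3% of all genes tested passed in either direction, and 35 of the 247 passed with a higher 129 level. Of the 6 tested genes of the acyl-CoA list, 4 passed with a higher 129 level. These were Gk, glycerol kinase (-1.36), Hsd17b10 (-0.87), Tmem164 (-0.71) and Pdha1 (-0.52). The Hsd17b10 value was -1.53 without its SNP with the most reads. In the phospholipid list Ocrl (-0.68) passed and, in the opposite direction, Stard8 (1.08). The total of Tmem164 rose between Nons day 3 and day 5 (0.87 ± 0.20; edgeR, adjusted p = 0.00602), as did 14.6% of all genes tested. Those of Ebp, a sterol isomerase of cholesterol synthesis (-1.82 ± 0.27), Mtmr1, a myotubularin family lipid phosphatase (-1.16 ± 0.28), and Gk (-0.80 ± 0.25) fell (edgeR, adjusted p = 0.000348, 0.00967 and 0.0274), as did 13.4% of all genes tested. Totals of Gk (-0.80) and Gla (-1.26) were also lower at day 3 than at day 0 (edgeR, adjusted p = 0.0397 and 0.0260), where 5.26% of genes passed with a lower total. Both of these calls were lost without day 0 replicate 1 or either Nons day 3 library, and that of Gk also with no filter on low counts (-0.77). The fall of the Gk total from day 3 to day 5 did not pass without the SNP with the most reads (-0.65). Of the calls in this paragraph, those of Hsd17b10, Pdha1 and Stard8 were lost without day 0 replicate 2, that of Ocrl without day 0 replicate 1, those of the Tmem164 and Mtmr1 totals without Nons day 3 replicate 2, and that of the Gk total at day 5 without any 1 of the 4 libraries. The day 0 calls of Gk and Tmem164 and the Ebp total passed under each alternative run.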

How the data were processed

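RNA-seq of 7 conditions with 2 replicates each was used (14 libraries). The authors mapped 100 bp reads to mm10 with Subread and took allelic reads at Mouse Genomes Project SNPs with samtools pileup. The submitters' processing notes name CASAVA 1.8.2 and SAMtools. The deposited values are raw read counts per SNP, of the 129 base and of the CAST base separately. A read over neighbouring SNPs counts at each, PCR copies are not removed by molecular identifiers, and no source states stranded counting, so exact 95% intervals cover counting error only. A further 4 per-sample columns, of samples not in the labels, were left out. Sources differ on the day of transduction.

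SNPs were assigned to genes by the exons of GENCODE M21, which also gave the sequences; 2173 SNPs lay in 1 gene. The test used edgeR 4.0.16 under R 4.3.3 for the genes that had 10 reads or more in each library (quasi-likelihood, Benjamini-Hochberg over 247 genes, adjusted p under 0.05). The ratio model had a term per library, an allele effect per condition and an allele effect per replicate, the block, since the study compares hairpins with Nons within replicates. Totals were TMM normalized without a block. A pseudocount of 1 was added for log2 ratios of single libraries. Percentages of genes that passed and medians refer to all genes tested. DESeq2 1.42.0, filters, centring, thinned SNPs and left-out libraries were alternatives. Python 3.11.15 was used for the rest.

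The members and lists were chosen with earlier results of these data known. Named genes are the members, the 3 most alike in ratio for each, and from the lists every gene that passed and up to 4 more with the most reads. The p-values measure the spread between 2 experiments on 1 cell line.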

Additional observations from a re-analysis of the deposited data

Results flagged for a closer look

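In Acsl4 at day 3 the hairpins lay on opposite sides of Nons in both replicates. The log2 ratio minus that of Nons was -0.26 ± 0.02 (SD, n = 2) with shSetdb1.4 and 0.32 ± 0.06 with shSetdb1.6, which is 0.58 apart. The contrast between them, added after the data were seen, did not pass over all genes (edgeR, adjusted p = 0.409).

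The shSetdb1.4 difference of Acsl4 also changed sign between days, from -0.26 at day 3 to 0.36 ± 0.37 at day 5, a change of 0.63. With centred ratios replicate 1 did not change sign (-0.25 at day 3 and -0.07 at day 5), while replicate 2 did (-0.26 and 0.19). This difference was not tested for shSetdb1.4 alone, and with both hairpins together it did not pass (0.44 ± 0.27 (SE); edgeR, adjusted p = 0.419).

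For the Acot9 total at day 5, both shSetdb1.4 libraries were above the Nons library of their replicate (0.37 ± 0.36 (SD, n = 2) on the log2 scale) and both shSetdb1.6 libraries below (-0.37 ± 0.12). The hairpins were 0.74 apart (shSetdb1.6 minus shSetdb1.4, -0.74), and this difference was not tested.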

How the results depend on the processing

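Of 566 values recomputed under an alternative, 505 kept their direction and side of the threshold, 30 lost a call, 6 gained one and 25, each of them of a value that did not pass, turned sign. Centred ratios ended 3 calls, Pcyt1b with hairpins at day 5 (0.45), Pcyt1b from Nons day 3 to day 5 (-0.42) and Acsl4 from day 0 to day 5 (-0.41). Without the replicate block Pcyt1b missed it with hairpins at day 5 (0.82), and with the replicate block its total passed from day 3 to day 5 (-0.79). With SNPs at least 100 bp apart Acsl4 passed from Nons day 3 to day 5 (-0.63), and with at least 30 reads Pcyt1b passed with shSetdb1.4 (0.90). With no filter the Acot9 total missed it from day 3 to day 5 (-0.87). The Pcyt1b total of day 3 against day 0 missed it with no filter (1.16), scaled by library size only (1.06) and without the SNP with the most reads (0.997), an alternative added after the data were seen. Values of Acot9 near 0 turned sign with DESeq2 (ratio, day 3 against day 0, 0.0130) and with no filter (total, hairpins at day 3, -0.0112). Replicates with the same number, checked by correlating their deviations, gave a mean r of 0.0514 in ratios and 0.207 in totals over 21 pairs of groups.

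The 10 genes called at day 5 with hairpins became 0 without the replicate block (56 at an unadjusted p under 0.05), 1 with centred ratios, 3 with no filter, 5 with DESeq2, 5 with day 5 alone, 5 without the SNP with the most reads and 18 with SNPs 100 bp apart. Without replicate 1 or 2 they became 1 or 2 for Nons, 53 or 4 for shSetdb1.4 and 1 or 5 for shSetdb1.6. The other counts used, with their range over all alternatives and left-out libraries, were 25 (10 to 30) for Nons day 5 against day 3, 28 (13 to 29) against day 0, 26 (11 to 32) for hairpins day 5 against day 3, 0 (0 to 40) for shSetdb1.4 and 3 (1 to 14) for shSetdb1.6 at day 5, 2 (0 to 11) for the difference between days, 55 (34 to 65) at day 0, and for totals 24 (0 to 38) to day 3 and 69 (23 to 93) to day 5.

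Leaving out each library in turn gave these ranges, among others. Ratio, hairpins at day 5: Acsl4 0.38 to 0.61, Acot9 0.43 to 1.17, Pcyt1b 0.69 to 0.97. Ratio, hairpins at day 3: Acsl4 2.6e-04 to 0.0589, Acot9 -0.32 to 0.51, Pcyt1b -0.0283 to 0.19. Ratio, shSetdb1.4 at day 5: Acsl4 0.15 to 0.54, Acot9 0.57 to 1.39, Pcyt1b 0.84 to 0.98. Ratio, shSetdb1.6 at day 5: Acot9 -0.0566 to 1.02, Pcyt1b 0.46 to 1.02. Ratio, Nons day 5 against day 3: Pcyt1b -0.89 to -0.68. Ratio, Nons day 5 against day 0: Acsl4 -0.81 to -0.56. Ratio, Nons day 3 against day 0: Acsl4 -0.17 to 0.0440, Acot9 -0.38 to 0.44. Ratio, hairpins day 5 against day 3: Acsl4 -0.27 to -0.0784, Acot9 -0.33 to 0.23, Pcyt1b -0.20 to 0.0852. Ratio at day 0: Acsl4 0.39 to 0.61, Acot9 -1.002 to -0.80. Ratio, shSetdb1.6 against shSetdb1.4 at day 5: Acsl4 0.0588 to 0.44, Acot9 -0.96 to 0.11, Pcyt1b -0.46 to 0.10, and at day 3 Acot9 -0.35 to 0.50. Total, Nons day 5 against day 3: Acsl4 0.50 to 0.75, Acot9 -1.25 to -0.77. Total, Nons day 3 against day 0: Acsl4 -0.29 to 0.0288, Pcyt1b 0.60 to 2.01. Total, hairpins at day 5: Acot9 -0.30 to 0.27, Pcyt1b -0.35 to -0.0237. Total, hairpins at day 3: Acot9 -0.0926 to 0.12, Acsl4 0.0297 to 0.29.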
